A study of Homo sapiens with 2 samples.

Results

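The collagen genes were described in 2 ATAC-seq libraries of SUM159 cells, an established triple negative breast cancer line of the claudin-low, mesenchymal kind. They were 43 of the 19970 protein-coding genes of the GENCODE annotation of hg38, those whose symbols name a collagen chain except COL17A1. COL17A1 was left out by the choice of the set and was not examined. The 43 genes fell into 11 fibrillar, 8 basement membrane and 24 other collagens. Peaks were taken from the gene body and from 4000 bp either side of every annotated transcript start. The lists held 160 collagen peaks of 67868 on chromosomes 1 to 22 and X in the No gRNA library, and 145 of 68238 in the All gRNA library.

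Cells of both groups carried dCas9-KRAB, a Cas9 that cannot cut fused to the KRAB repressor domain, delivered with a puromycin-selected lentiviral vector. The No gRNA group had the vector without a targeting guide, and the All gRNA group had it with 4 guides to the promoter of ZEB1, a repressor that drives the mesenchymal state. Each group was 1 library of a transduced population, which allows no test between the groups and no p-value. The 95% intervals of ratios are for counting error alone. Those of shares are exact binomial intervals over the genes or peaks counted, and those of medians come from the ranked values of the peaks. None of them measures the spread between replicates. ATAC-seq reads where the transposase Tn5 reaches DNA, which gives open chromatin and not RNA, so a peak does not show that a gene is transcribed, and in a bulk library more cells with an open site cannot be told apart from a site that is open more often in each cell. Within 1000 bp of the main start of ZEB1 the No gRNA list held 2 peaks and the All gRNA list none. The main start of VIM, a mesenchymal marker, had a peak in both lists, and that of CDH1, the epithelial cadherin, had none in either. All gRNA had the shallower library, with a depth of 0.743 relative to No gRNA.

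Collagens are secreted proteins whose chains wind into a triple helix. Fibrillar collagens such as types I, III and V assemble into the fibrils that give stroma its tensile strength and are typical products of mesenchymal cells. Type IV chains form the sheet-like network of basement membranes under epithelia, and types XV and XVIII sit in the basement membrane zone. The remaining types link fibrils, form beaded filaments or short-chain networks, anchor epithelium to stroma or span the cell membrane. The 6 type IV genes lie in head-to-head pairs, each pair transcribed away from a shared promoter.

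Collagen promoters are shown first, since the first comparisons ask which of them were open. RefSeq promoter sequences, 250 bases before to 50 after a start on GRCh38.p14, matched 31 of the 43 genes. The unmatched genes were COL1A1, COL1A2, COL2A1, COL3A1, COL5A2, COL6A1, COL6A5, COL8A1, COL9A3, COL14A1, COL20A1 and COL22A1. The 4 promoters below are printed 5′ to 3′ on the strand of the gene, with every CpG in capitals. The first, at chr13:110307128-110307287 on the plus strand, with 24 CpGs, spans the starts of COL4A1 and COL4A2, from 30 bases inside COL4A1 to 4 bases inside COL4A2. The others end 30 bases into the transcript. COL5A1 lies at chr9:134641553-134641832, plus strand, with 34. COL12A1 lies at chr6:75206024-75206303, minus strand, with 24. These 3 had a peak at the main start in both libraries. COL28A1, at chr7:7535844-7536123 on the minus strand, held 1 CpG and had no peak there in either library.
COL4A2: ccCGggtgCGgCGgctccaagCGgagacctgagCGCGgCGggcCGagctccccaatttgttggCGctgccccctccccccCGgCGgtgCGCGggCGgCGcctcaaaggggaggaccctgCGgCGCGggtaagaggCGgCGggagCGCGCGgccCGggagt
COL5A1: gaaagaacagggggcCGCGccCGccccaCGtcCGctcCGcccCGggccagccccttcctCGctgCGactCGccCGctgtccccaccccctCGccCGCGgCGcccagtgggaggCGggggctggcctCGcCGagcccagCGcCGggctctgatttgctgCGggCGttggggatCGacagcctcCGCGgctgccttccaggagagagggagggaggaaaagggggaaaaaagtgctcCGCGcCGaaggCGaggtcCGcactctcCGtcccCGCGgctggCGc
COL12A1: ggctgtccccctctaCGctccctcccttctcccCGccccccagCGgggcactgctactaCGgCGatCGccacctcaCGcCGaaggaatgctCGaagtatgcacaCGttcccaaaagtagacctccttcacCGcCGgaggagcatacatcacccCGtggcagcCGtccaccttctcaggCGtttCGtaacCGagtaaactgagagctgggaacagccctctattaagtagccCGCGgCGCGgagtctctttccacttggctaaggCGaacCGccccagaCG
COL28A1: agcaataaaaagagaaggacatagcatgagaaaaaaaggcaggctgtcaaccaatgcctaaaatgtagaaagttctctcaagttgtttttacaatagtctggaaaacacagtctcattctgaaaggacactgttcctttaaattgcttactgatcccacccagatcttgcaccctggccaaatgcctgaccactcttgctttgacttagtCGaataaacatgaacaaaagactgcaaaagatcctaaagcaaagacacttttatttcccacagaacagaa

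The next sequences are those of 4 intronic peaks whose height differed between the libraries. Each is 201 bases centred on the No gRNA summit, on the plus strand of hg38. Capitals mark CAGGTG or its complement CACCTG, the E-box bound by ZEB1, TGACTCA or TGAGTCA, the AP-1 site, and GGAATG or CATTCC, the TEAD core. COL4A2 at chr13:110412331-110412531 and the second COL15A1 sequence at chr9:98989786-98989986 were lower in All gRNA. The first COL15A1 sequence at chr9:98975086-98975286 and COL28A1 at chr7:7489751-7489951 were higher. The E-box was in the COL15A1 peak that was higher, an AP-1 and a TEAD site were in the COL15A1 peak that was lower, and a TEAD site was also in the COL28A1 peak that was higher. A match describes the letters of the window and not the binding of a factor.
COL4A2, lower: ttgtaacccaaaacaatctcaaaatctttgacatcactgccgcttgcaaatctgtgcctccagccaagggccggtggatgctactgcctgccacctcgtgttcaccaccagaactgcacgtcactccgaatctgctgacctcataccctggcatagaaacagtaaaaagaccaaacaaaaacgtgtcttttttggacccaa
COL15A1, higher: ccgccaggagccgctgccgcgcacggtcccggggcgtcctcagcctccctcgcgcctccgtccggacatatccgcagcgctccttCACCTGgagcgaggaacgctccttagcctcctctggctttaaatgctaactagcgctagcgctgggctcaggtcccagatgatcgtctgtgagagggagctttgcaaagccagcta
COL15A1, lower: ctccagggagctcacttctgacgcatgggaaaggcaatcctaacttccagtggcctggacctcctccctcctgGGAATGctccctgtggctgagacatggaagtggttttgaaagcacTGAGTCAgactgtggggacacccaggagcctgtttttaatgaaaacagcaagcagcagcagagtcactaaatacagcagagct
COL28A1, higher: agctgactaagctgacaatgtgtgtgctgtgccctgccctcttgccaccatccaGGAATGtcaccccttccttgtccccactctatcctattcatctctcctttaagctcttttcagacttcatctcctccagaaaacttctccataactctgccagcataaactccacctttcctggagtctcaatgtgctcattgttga

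The first question was which collagen promoters were open. A promoter peak here is a peak that overlaps the 4000 bp on either side of any transcript start of the gene. In both lists 28 of the 43 genes had one (65.1%, 49.1 to 79.0), beside 71.3% of all protein-coding genes. In the No gRNA list alone 6 genes had one (14.0%, 5.30 to 27.9, beside 2.92% of all genes). In the All gRNA list alone 2 genes had one (4.65%, 0.568 to 15.8, beside 2.56%). The other 7 had none: COL5A2, COL6A5, COL6A6, COL9A1, COL11A2, COL20A1 and COL24A1. COL11A2 is also present in the reference on 5 alternate contigs, where 1 No gRNA and no All gRNA peak lay, so its state on the main chromosome is uncertain. The number with a promoter peak in No gRNA alone depended on the window, with 2 genes at 1000 bp and 3 at 10000 bp. It also depended on peak strength, with 11 genes where peaks below a −log10 q of 5 were left out of both lists. Some of these 11 had a weaker peak in All gRNA, as COL26A1 did, at 8.30 in No gRNA and 3.83 in All gRNA. The median −log10 q of the whole list was 13.7 in No gRNA and 10.1 in All gRNA.

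By class, a promoter peak in both lists was found at 7 of 8 basement membrane genes, at 6 of 11 fibrillar genes and at 15 of 24 others. The 7 basement membrane genes were all 6 type IV chains and COL18A1. The 6 fibrillar genes were COL1A1, COL1A2, COL3A1, COL5A1, COL11A1 and COL27A1. The intervals of the shares, 47.3% to 99.7%, 23.4% to 83.3% and 40.6% to 81.2%, overlap, and the genes of a head-to-head pair share their peaks and are not independent. The order of the first 2 classes depended on peak strength, since at a −log10 q of at least 10 the counts were 3 of 8, 5 of 11 and 4 of 24. Without peaks at the starts of other genes they were 1, 5 and 13, where the partner of a head-to-head pair counts as another gene.

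Collagen genes have many annotated starts, and part of these promoter peaks lay far from the main one, the start of the Ensembl canonical transcript. Of 56 No gRNA promoter peaks, 21 lay within 1000 bp of a main start and 21 more than 10000 bp away. Of 44 All gRNA promoter peaks, the numbers were 18 and 16. With a summit required within 1000 bp of the main start, 14 of 43 collagen genes were open in both lists (32.6%, 19.1 to 48.5), beside 59.6% of all protein-coding genes. By class it was 6 of 8 for basement membrane genes (34.9% to 96.8%), 2 of 11 for fibrillar genes (2.28% to 51.8%) and 6 of 24 for the others (9.77% to 46.7%), and these intervals also overlap. The 14 genes were COL4A1, COL4A2, COL4A3, COL4A4, COL4A6 and COL18A1 of the basement membrane, the fibrillar COL5A1 and COL27A1, and COL6A1, COL6A2, COL7A1, COL8A1, COL12A1 and COL13A1. COL8A1 is at the edge of this window, since its All gRNA summit lay 1000 bp upstream. The main start of COL4A5, COL9A3 and COL16A1 had a peak in No gRNA alone, beside 2.61% of all genes, and that of COL9A2 and COL19A1 in All gRNA alone, beside 1.52%.

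**Figure D1:**
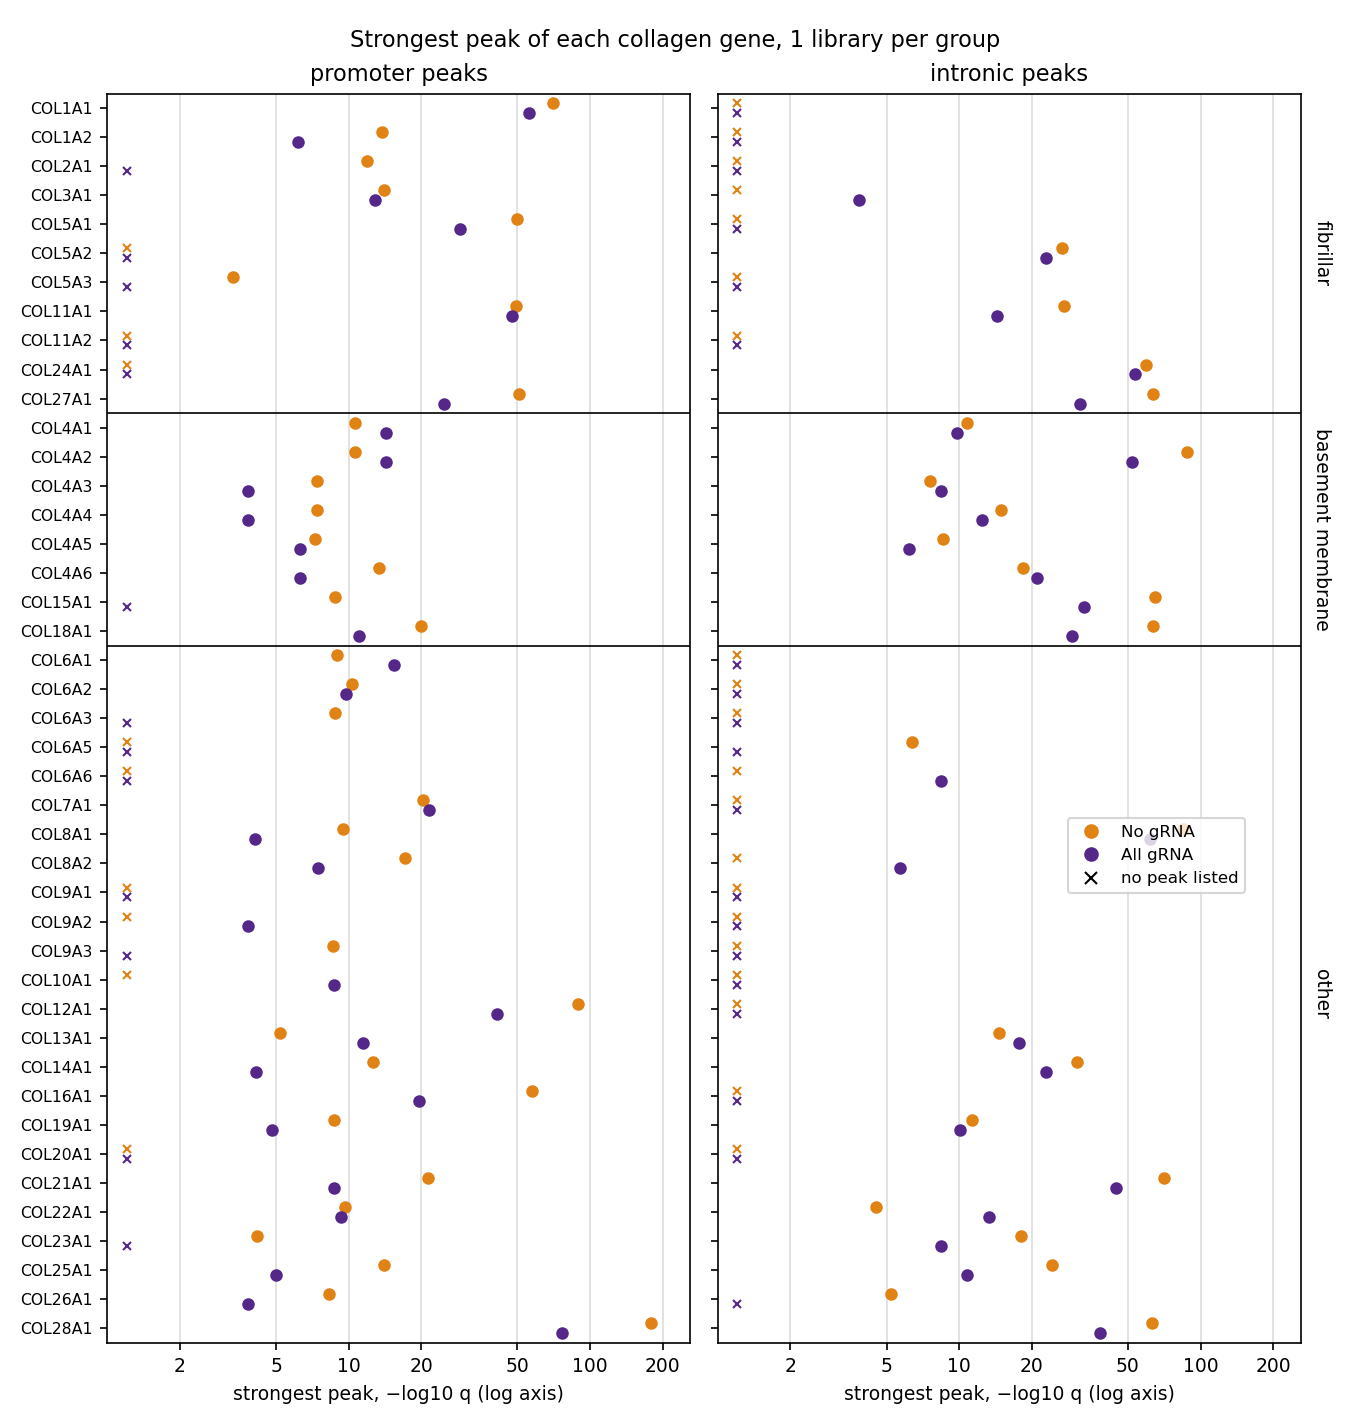
Strongest promoter peak (left) and strongest intronic peak (right) of each of the 43 collagen genes, as the authors' −log10 q on a log axis, in the No gRNA (orange) and All gRNA (purple) library, 1 library each; crosses mark genes with no peak listed. Promoter peaks were listed in both libraries for 28 genes, and the strongest of all were those of COL28A1, at 180 and 76.5.

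Openness of the main start was set beside the CpG content of the promoter. The CpG ratio, the observed number of CpGs over that given by the C and G content, was available for 27 collagen genes whose RefSeq start lay within 1000 bp of the main start. Of the 18 with a ratio of at least 0.6, 10 had a main-start peak in both lists (55.6%, 30.8 to 78.5), beside 82.7% of all genes with such a ratio. Of the 9 below it, 1 had such a peak (11.1%), beside 19.4% of all genes. The ratio ran from 0.0947 at COL28A1 to 1.10 at COL25A1. COL25A1 and COL15A1, with a ratio of 1.08, had the highest values and no main-start peak in either list. CCAAT was found on either strand in 9 of the 31 matched collagen promoters (29.03%), beside 36.6% of all 15316 matched promoters. The ZEB1 E-box was found in 16.1%, beside 19.8%, and no AP-1 site was found, beside 3.68%.

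Of the fibrillar genes, COL1A1, COL1A2 and COL3A1 had no summit within 1000 bp of the main start in either list, while COL5A1 and COL27A1 had one in both. COL1A1, the alpha 1 chain of type I collagen, had a strong shared peak 1233 bp inside the main start, at chr17:50200158-50201110. Its summit pileup, the number of read ends at the highest point, was 92 and 64. Paired pileups are given in this order, No gRNA before All gRNA, unless said otherwise, and a ratio is that of All gRNA over No gRNA after scaling by depth, here 0.936 (0.670 to 1.30). The peak also lay within 1000 bp of the start of another gene, ENSG00000249406. COL1A2, the alpha 2 chain, had its promoter peak 29287 bp downstream of the main start, at an internal start, with pileups of 15 and 8 and a ratio of 0.718 (0.264 to 1.80). COL3A1, the type III chain, had its peak 27984 bp downstream, with pileups of 15 and 13 and a ratio of 1.17 (0.511 to 2.63). COL5A1, a type V chain that starts fibrils, was open at the main start itself, in the sequence printed above, with pileups of 63 and 36 and a ratio of 0.769 (0.496 to 1.18). None of these 4 ratios had an interval that excluded 1. COL27A1, a further fibrillar chain, had a peak 4 bp from the main start with pileups of 56 and 29 (0.697, 0.429 to 1.11).

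The main starts of the type IV genes had a peak in both lists, except that of COL4A5, which had none in All gRNA. Pileups at these starts were 6 to 22. COL4A1 and COL4A2 have main starts 127 bp apart and shared 1 peak, chr13:110306963-110307879 in No gRNA, with pileups of 17 and 22 and a ratio of 1.74 (0.883 to 3.49). All gRNA held a further peak upstream of COL4A1 at chr13:110307922-110308186 with a pileup of 12 and a −log10 q of 4.78. COL4A3 and COL4A4, 419 bp apart, had 3 peaks in No gRNA and 1 in All gRNA. The peak found in both had pileups of 11 and 6, a ratio of 0.734 (0.223 to 2.17), and the other No gRNA peaks had pileups of 9 and 8. COL4A5 and COL4A6, 1416 bp apart, had 2 peaks in No gRNA and 1 in All gRNA. The shared one, at the start of COL4A6, had a pileup of 11 in each library and a ratio of 1.35 (0.529 to 3.42). The peak at the start of COL4A5, chrX:108439795-108440033, was listed in No gRNA alone with a pileup of 14. COL18A1, whose C-terminal fragment is endostatin, had 2 shared promoter peaks with pileups of 25 and 16 and of 28 and 15.

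Among the other collagens, COL12A1, a fibril-associated chain, had the tallest peak at a main start. Its pileup at chr6:75205840-75206476 was 116 and 54, a ratio of 0.626 (0.445 to 0.872), which excludes 1 but is short of 2-fold. Among the collagen genes described, COL28A1 had the strongest peak, at chr7:7438895-7439387. It lay 96696 bp downstream of the main start and 1742 bp from an internal one. Its −log10 q was 180 and 76.5, and its pileups of 156 and 72 gave a ratio of 0.621 (0.463 to 0.826). COL16A1, a fibril-associated chain, had an internal promoter peak at chr1:31689936-31690360 with pileups of 56 and 22 and a ratio of 0.529 (0.307 to 0.880). None of the 3 reached 2-fold. They were the 3 of 37 shared collagen promoter peaks with an interval below 1 (8.11%, 1.70 to 21.9), beside 12.9% of those of all protein-coding genes, and none had an interval above 1, beside 2.22%.

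The genes whose promoter peak was listed in 1 library alone had low peaks. In No gRNA alone, COL2A1, the cartilage collagen, had 2 peaks of that library, with pileups of 16 and 10, 2714 and 3218 bp inside its main start. COL9A3, a cartilage chain, had 2 such peaks, with pileups of 11 and 15. COL6A3, a beaded filament chain, and COL15A1 each had 1 peak with a pileup of 11, COL5A3 and COL23A1 each had 1 with a pileup of 7. In All gRNA alone, COL10A1, the collagen of hypertrophic cartilage, had 1 peak with a pileup of 10, and COL9A2 had 1 with a pileup of 6. Their −log10 q lay between 3.32 and 11.9, against a median of 24.0 for promoter peaks of all protein-coding genes in No gRNA and 16.2 in All gRNA.

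Intronic peaks, those outside the promoter windows with the summit in no exon, made up the larger part of the collagen peaks, 102 in No gRNA and 99 in All gRNA, with 2 exonic peaks in each list. Collagen genes are long, with a median length of 150 kb against 27.5 kb for all protein-coding genes. Per 100 kb of gene body they held 1.54 intronic peaks in No gRNA and 1.49 in All gRNA, beside 1.30 and 1.31 for all protein-coding genes. The gene body here includes the promoter windows, which take a larger part of short genes. Basement membrane genes held the most, 2.34 and 2.13, against 1.34 and 1.41 for fibrillar and 1.30 and 1.28 for other collagens. The intronic peaks were spread unevenly. COL8A1, a short-chain collagen of vessels and cornea, held 11 in each library. COL4A2 held 9 and 11, and COL15A1 6 and 6. By contrast 20 genes held no intronic peak in No gRNA, among them COL1A1, COL1A2, COL5A1 and COL12A1. COL1A1 (17.5 kb, 13 starts) and COL1A2 (36.3 kb, 12 starts) are short, so promoter windows can cover much of them. COL5A1 spans 203 kb and COL12A1 122 kb.

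The 9 strongest intronic peaks of No gRNA were all shared, and for 8 of them the interval of the ratio included 1. In COL4A2, chr13:110396704-110397390 had a −log10 q of 88.2 for No gRNA and 51.8 for All gRNA, with pileups of 85 and 51 and a ratio of 0.807 (0.559 to 1.16). In COL8A1, chr3:99658953-99659514 had a −log10 q of 84.7 and 61.5, with pileups of 85 and 65 and a ratio of 1.03 (0.733 to 1.44). In COL21A1, a fibril-associated collagen, chr6:56101119-56101618 had pileups of 67 and 41, a ratio of 0.823 (0.544 to 1.23). The fourth, in COL15A1 at chr9:98989459-98990128, was the exception, with pileups of 68 and 22 and a ratio of 0.435 (0.256 to 0.713). Those of COL27A1, COL18A1 and COL28A1 followed. In COL27A1, chr9:114278924-114279478 had pileups of 70 and 40, a ratio of 0.769 (0.508 to 1.15). In COL18A1, chr21:45427788-45428187 had pileups of 61 and 32, a ratio of 0.706 (0.445 to 1.10). In COL28A1, chr7:7492573-7492956 had pileups of 68 and 50, a ratio of 0.989 (0.673 to 1.45). COL24A1 and a second peak of COL15A1 complete the 9. In COL24A1, which had no promoter peak, chr1:85850310-85850686 had pileups of 52 and 46, a ratio of 1.19 (0.783 to 1.80). In COL15A1, chr9:99019340-99020414 had pileups of 68 and 40, a ratio of 0.792 (0.522 to 1.19).

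**Figure D2:**
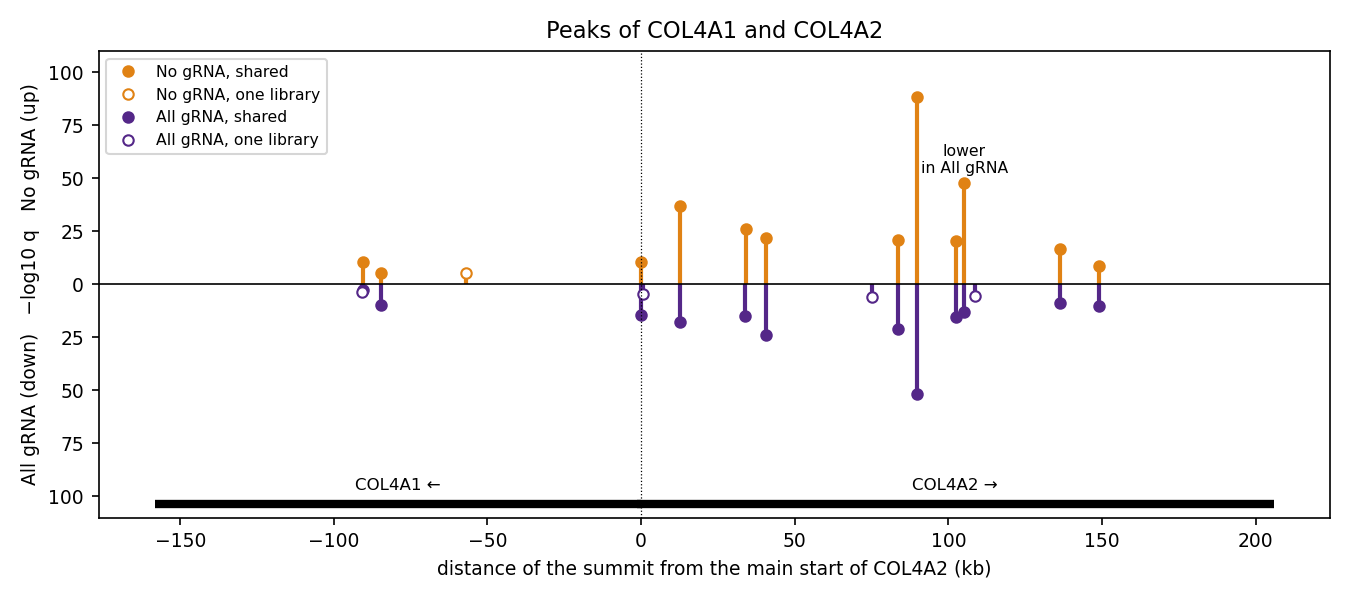
Peaks of COL4A1 and COL4A2 by the distance of their summit from the main start of COL4A2 (kb), with the −log10 q of No gRNA upwards (orange) and of All gRNA downwards (purple); open circles are peaks of 1 library, black bars are the genes. The shared promoter at 0 is low, at 10.6 and 14.3, and the tallest peaks lie inside COL4A2, where one of them was lower in All gRNA.

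Peaks that matched one to one between the lists were compared by summit pileup, and a peak was called higher or lower in All gRNA when its depth-scaled ratio was beyond 2-fold with an interval that excluded 1. Of 37 shared promoter peaks none was called, beside 1.13% higher and 2.88% lower among those of all protein-coding genes, so that 0 of 37 allows a share of up to 9.49%. Their median log2 ratio was −0.17 (−0.46 to 0.18), beside −0.19 for all genes, and 22 of 37 ratios were below 1. Of 66 shared intronic peaks 3 were called higher (4.55%, beside 2.96%) and 2 lower (3.03%, beside 3.72%), shares near the background. Their median log2 ratio was 0.05 (−0.20 to 0.19), beside −0.05. By class the median over all shared peaks was −0.03 for fibrillar (n = 22), −0.26 for basement membrane (n = 30) and 0.03 for other collagens (n = 52). The median over all shared peaks of all protein-coding genes was −0.15. The intervals of the class medians, taken over peaks, all included 0. Several peaks came from the same gene or a shared promoter, and peaks of 1 library per group are not replicates. These intervals thus cannot show whether the guides had an effect. The fibrillar median changed sign, to 0.13 at a −log10 q of at least 10. It was 0.04 without peaks at the starts of other genes and 0.08 when scaled by the median ratio of all shared peaks.

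The called peaks were in 4 genes. In COL4A2 the peak at chr13:110412244-110412592, 105147 bp inside the main start, had pileups of 58 and 21, a ratio of 0.487 (0.281 to 0.815). COL15A1 held a peak called in each direction, with summits 14700 bp apart in the No gRNA list. The lower one is the strong peak at chr9:98989459-98990128 given above. The one at chr9:98975055-98975358 had 18 and 33, a ratio of 2.47 (1.35 to 4.65). In COL28A1 the peak at chr7:7489769-7489968 had 17 and 26, a ratio of 2.06 (1.08 to 4.04), and in COL14A1, a fibril-associated collagen on chromosome 8, an intronic peak had 9 and 19, a ratio of 2.84 (1.22 to 7.13). Scaled by the median ratio of all shared peaks, the COL4A2 peak had a ratio of 0.525 (0.303 to 0.878) and was no longer called, while the other 4 were. With a −log10 q of at least 10 required in both lists, the COL28A1 and COL14A1 peaks dropped out, at 6.29 and 6.37 in No gRNA. No SD can be set beside these ratios, since each group had 1 library, so whether they exceed the spread between replicates is unknown.

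**Figure D3:**
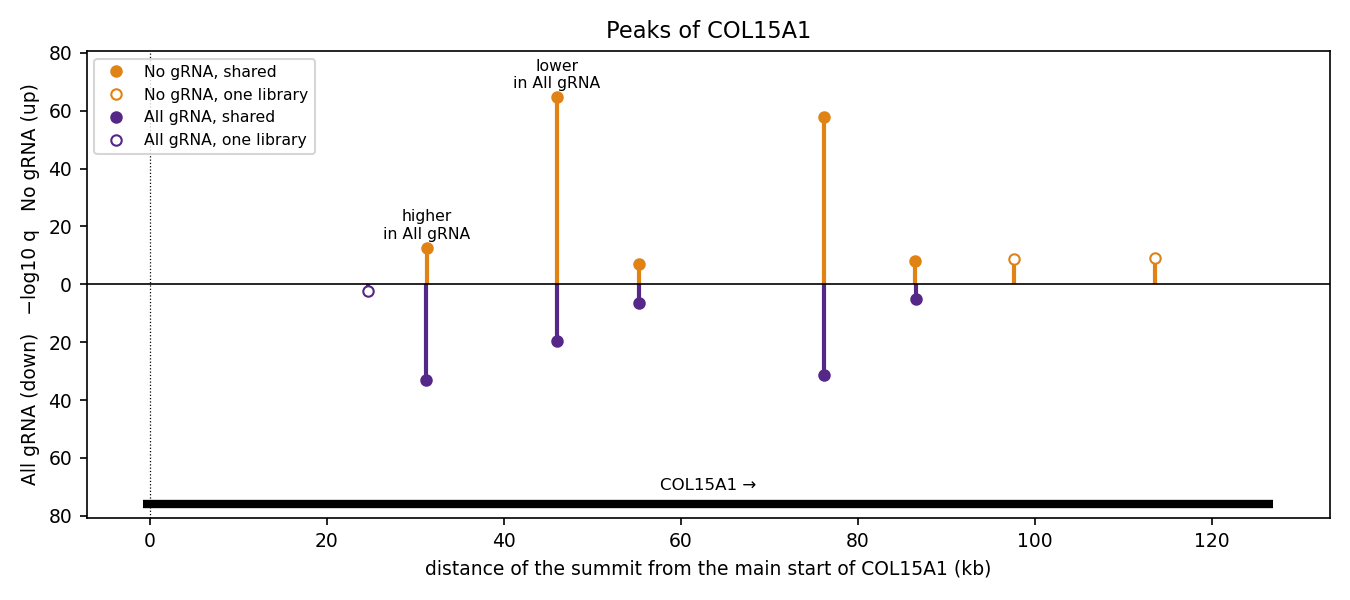
Peaks of COL15A1 by the distance of their summit from its main start (kb), with the −log10 q of No gRNA upwards (orange) and of All gRNA downwards (purple); open circles are peaks of 1 library and the black bar is the gene. The main start at 0 has no peak, and the peaks higher and lower in All gRNA stand 14700 bp apart.

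**Figure D4:**
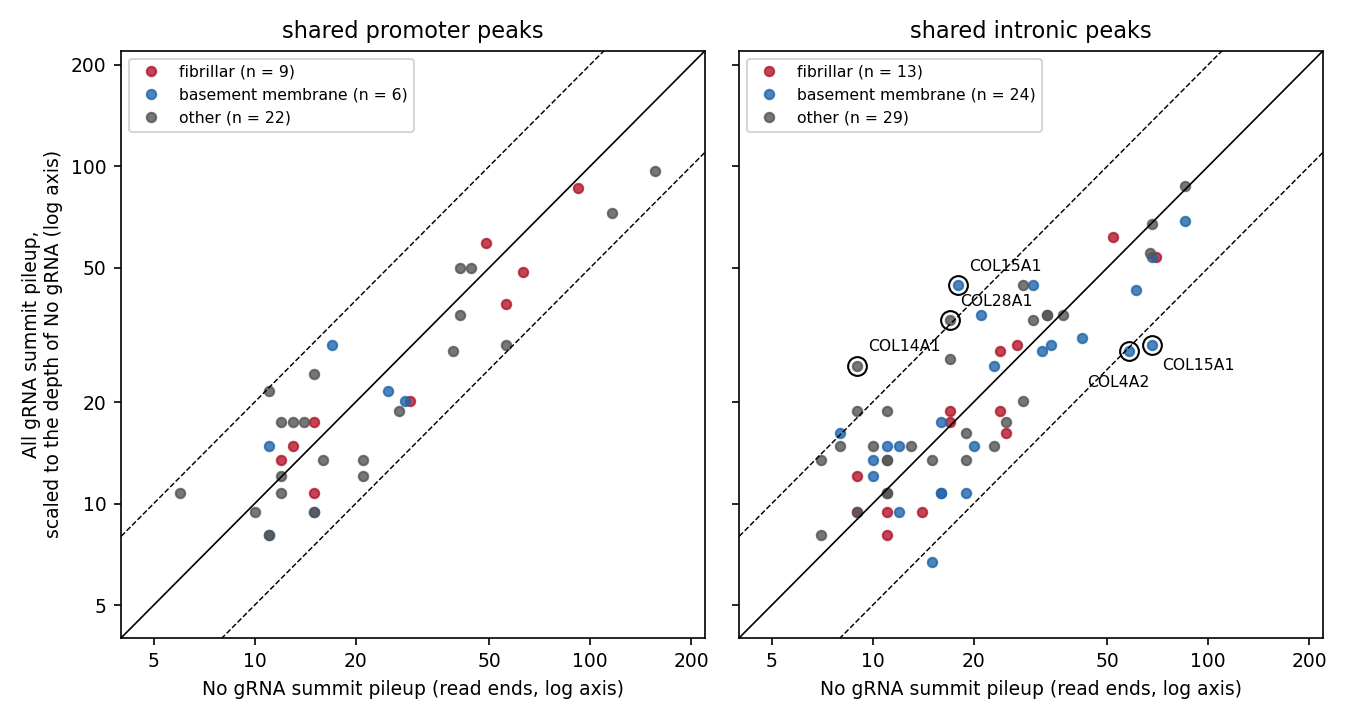
Summit pileup of shared promoter (left, n = 37) and intronic (right, n = 66) collagen peaks in No gRNA against that in All gRNA scaled to the depth of No gRNA, in read ends on log axes; the solid line is equality, dashed lines are 2-fold, and circles with names mark called peaks. Promoter peaks lie around or just below equality, and the 5 called peaks are intronic.

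A further comparison asked which collagen peaks had no overlap in the other list. Of the promoter peaks this held for 19 of 56 in No gRNA (33.9%, 21.8 to 47.8, beside 17.5% over all protein-coding genes) and for 7 of 44 in All gRNA (15.9%, 6.64 to 30.1, beside 12.5%). Of the intronic peaks it held for 32 of 102 in No gRNA (31.4%, beside 28.8%) and for 31 of 99 in All gRNA (31.3%, beside 28.8%). Collagen promoter peaks had a lower median strength, at a −log10 q of 9.83 for No gRNA and 8.29 for All gRNA, against 24.0 and 16.2 for all protein-coding genes. Intronic peaks were closer to those of other genes, at 9.23 and 8.41 against 11.7 and 8.72. Among No gRNA promoter peaks with a −log10 q of 5 to 10 the share without overlap was 44.4% for collagens and 47.5% for all genes, and from 10 to 20 it was 23.5% and 19.9%. At 20 or more none of the 11 collagen peaks lacked overlap. The 19 No gRNA promoter peaks had pileups of 6 to 30, the 7 of All gRNA 6 to 21, and the intronic ones 6 to 21 and 5 to 16. Scaled by depth, the pileup of every one of them was at or above the lowest that would be called in the other library over the same background. The peaks were picked for being called in their own library, so this comparison cannot tell why they were missing from the other. The part of counting error in these peaks was not tested.

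**Figure D5:**
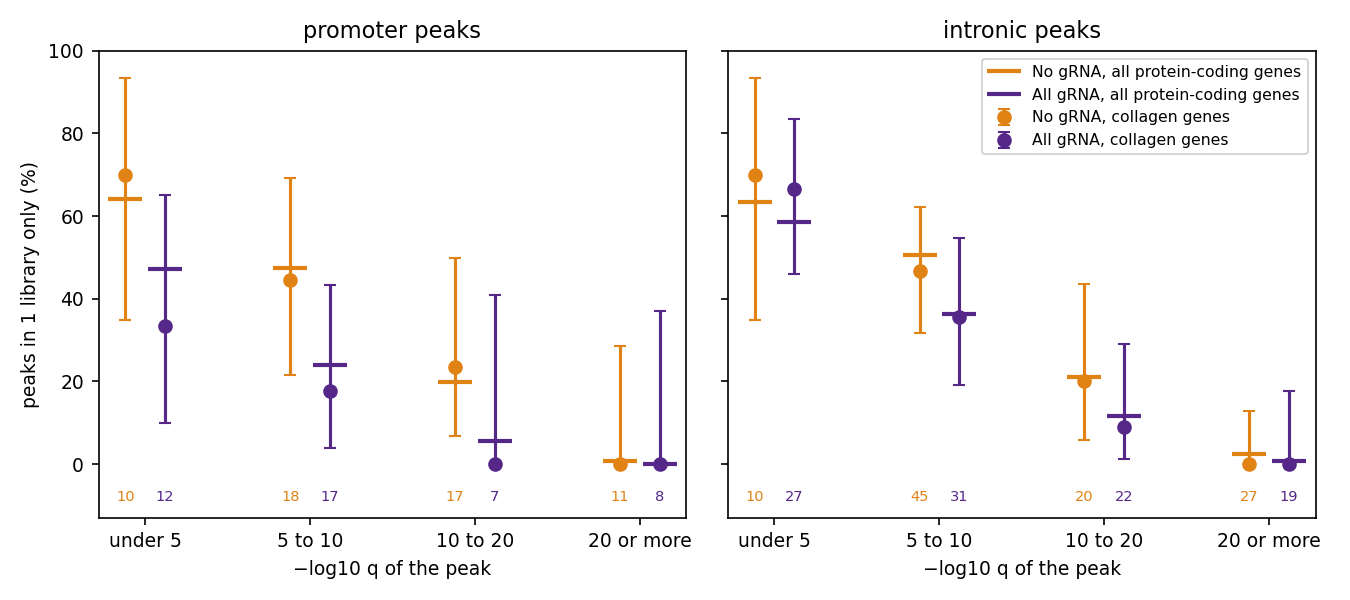
Share of promoter (left) and intronic (right) peaks found in 1 library only, in percent, by the −log10 q of the peak; points with exact 95% intervals are collagen genes, dashes are all protein-coding genes, and the numbers under the points count the collagen peaks. Within each class of strength the intervals of the collagen shares include the share over all genes.

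The strongest peaks without overlap had a −log10 q of at most 14.0. In No gRNA they were an intronic and a promoter peak of COL14A1 (No gRNA pileups of 15 and 14), an intronic peak of COL13A1, a transmembrane collagen, at chr10:69807280-69807556 (17), the COL2A1 peak at chr12:48001612-48001846 (16) and a COL16A1 promoter peak at chr1:31704605-31705038 (30). In All gRNA they were an intronic peak of COL22A1, a fibril-associated collagen of tissue junctions (16), a COL13A1 intronic peak at chr10:69914633-69915005 (13), a COL1A1 peak at chr17:50199827-50200116 (21), a COL21A1 peak at chr6:56200147-56200362 and the COL10A1 peak at chr6:116128216-116128535. COL13A1 thus had 1 of the strongest peaks of each list. The COL1A1 peak lies directly beside the shared COL1A1 peak, which starts at chr17:50200158 in No gRNA. It too lies within 1000 bp of the start of ENSG00000249406. The COL2A1 and COL1A1 peaks are printed as the fibrillar examples of each library, 201 bases around the summit on the plus strand of hg38, with the E-box in capitals. They are chr12:48001662-48001862 and chr17:50199875-50200075.
COL2A1, No gRNA only: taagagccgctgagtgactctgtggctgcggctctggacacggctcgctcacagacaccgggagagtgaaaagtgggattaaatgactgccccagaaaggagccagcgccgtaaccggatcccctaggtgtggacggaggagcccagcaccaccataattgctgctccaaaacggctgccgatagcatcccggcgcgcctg
COL1A1, All gRNA only: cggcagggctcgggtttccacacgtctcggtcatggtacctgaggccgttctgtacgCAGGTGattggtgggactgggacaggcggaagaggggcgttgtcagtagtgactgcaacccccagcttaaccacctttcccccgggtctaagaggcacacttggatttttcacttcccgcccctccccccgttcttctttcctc

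The motifs named above were counted on both strands in 201 bp around every summit. The AP-1 site was in 30.4% of the intronic collagen peaks of No gRNA and 29.3% of those of All gRNA, beside 30.7% and 31.1% of all intronic peaks. In promoter peaks it was in 11 of 56 of No gRNA (19.6%, 10.2 to 32.4) and 14 of 44 of All gRNA (31.8%, 18.6 to 47.6), beside 12.1% and 12.4%. In shared promoter peaks it was in 11 of 37 of No gRNA (29.7%) and 13 of 37 of All gRNA (35.1%), beside 11.7% and 11.5%. Shared intronic peaks of all protein-coding genes held it in 33.7% and 33.0%. Of the collagen promoter peaks of No gRNA, 21 of 56 lay more than 10000 bp from a main start. The shared ones had a median GC content of 56.2% and 59.2%, beside 63.7% for all genes in each library. None of the 31 matched RefSeq promoters of collagen genes held the site. In promoter peaks found in 1 library the AP-1 site was in 0 of 19 of No gRNA and 1 of 7 of All gRNA, beside 14.0% and 18.7%. The TEAD core was in 13 of 56 promoter peaks of No gRNA (23.2%, 13.0 to 36.4) and 8 of 44 of All gRNA (18.2%, 8.19 to 32.7), beside 10.2% and 9.95%. In intronic peaks it was in 20.6% and 13.1%, beside 17.4% and 16.5%. Of the matched RefSeq collagen promoters 3.23% held it, beside 11.7%. CCAAT was in 17.9% and 13.6% of promoter peaks, beside 24.2% in each library. The ZEB1 E-box was in 10 of the 31 intronic collagen peaks found in All gRNA alone (32.3%, 16.7 to 51.4), beside 15.4% of all such peaks of protein-coding genes. In shared intronic collagen peaks of All gRNA it was in 5 of 68 (7.35%, 2.43 to 16.3, beside 10.7%), and in those found in No gRNA alone in 4 of 32 (12.5%, 3.51 to 28.99, beside 10.4%). CAGCTG, an E-box of the same length, was in 3 of the 31 (9.68%, beside 10.4%). The 10 peaks lay in COL4A2, COL4A6, COL6A6, COL8A1, COL8A2, COL15A1, COL22A1, COL24A1 and COL25A1, with pileups of 5 to 16. Of the 7 promoter peaks found in All gRNA alone 3 held the ZEB1 E-box, those of COL1A1, COL4A1 and COL9A2, beside 19.4% of all such peaks. Those of COL1A1 and COL4A1 lie directly beside a promoter peak shared by both lists. These are descriptions of small counts with no test, chosen with earlier results of these data known.

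The genes that make, fold, process, cross-link and bind collagen were taken as 5 lists of 42 genes picked by role. A promoter peak was found in both lists for 35 (83.3%, 68.6 to 93.03, beside 71.3% of all genes). These were all 12 prolyl and lysyl hydroxylases and their partners, among them CRTAP and the cyclophilin PPIB, all 7 chaperones, glycosyltransferases and secretion factors, all 5 lysyl oxidases, 6 of 8 propeptide proteases and enhancers and 5 of 10 receptors. DDR2, a receptor kinase for fibrillar collagen, had its promoter peak in No gRNA alone (pileup of 9), and ITGA10, an integrin chain, in All gRNA alone (8). ADAMTS2, PCOLCE, DDR1, GP6 and LAIR1 had none. DDR1 and GP6 are also present on 4 and 9 alternate contigs, with 1 All gRNA peak on those of DDR1, so their state is uncertain.

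Of 61 shared promoter peaks of these genes 4 were called lower in All gRNA (6.56%, 1.82 to 15.9, beside 2.88%) and none higher (beside 1.13%), with a median log2 ratio of −0.23. P4HA2, a subunit of prolyl 4-hydroxylase that stabilises the helix, had pileups of 38 and 8 at chr5:132190311-132190581, a ratio of 0.283 (0.114 to 0.616), and its other 3 shared promoter peaks had ratios of 0.553 to 1.247 and were not called. PLOD2, the lysyl hydroxylase of telopeptides, had 35 and 10 at chr3:146126132-146126527, a ratio of 0.384 (0.170 to 0.793). That was 1 of 7 shared promoter peaks of PLOD2, of which 5 had a ratio above 1, and the median log2 ratio of the 7 was 0.26. LOXL3, a cross-linking oxidase, had 39 and 12 at chr2:74548782-74549287, a ratio of 0.414 (0.197 to 0.807), at a peak that also lies in the promoter window of DOK1, and its other shared peak had a ratio of 1.12. MRC2, an endocytic collagen receptor, had 33 and 8 at chr17:62627352-62628276, a ratio of 0.326 (0.130 to 0.720), at its single shared promoter peak. In All gRNA the 4 called peaks were weak, with a −log10 q of 3.29 to 8.72.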

How the data were processed

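ATAC-seq peak lists of 1 library per group were analysed. The authors used fastp for trimming, Bowtie2 for mapping to hg38 and MACS2, with no control library, for calling peaks per library, after mitochondrial, duplicate and excluded-region reads had been removed (versions not given in the sources used here). The deposited lists give per peak a fold over local background (a ratio), a −log10 p, a −log10 q and a score. The deposited score repeats the −log10 q and was not used. The lists give no library totals. Whole-number pileups were solved from the authors' fold and −log10 p (100% of peaks), and the relative depth was taken from the lowest background. The procedure was tested on simulated data. Genes came from GENCODE release 44, sequences from hg38 and RefSeq. Peaks of the lists were shared from an overlap of 1 bp, and a promoter reached 4000 bp either side of any start. Shares and ratios have Clopper-Pearson 95% intervals, and those of medians come from the ranked ratios of the peaks. Calls needed a 2-fold ratio and an interval excluding 1. Alternatives were other windows, −log10 q thresholds of 5 and 10, overlaps, scalings and folds. Neighbouring read ends are not independent molecules. Alternate-contig copies were found with minimap2.

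Genes named with values were those with the 3 strongest peaks per class, a promoter peak in 1 list, a called peak or 1 of the 5 strongest one-library peaks per list, the type IV pairs, COL1A1, COL1A2, COL3A1 and COL5A1, and pathway genes with a promoter peak in 1 list or a called one. The members, lists and motifs were chosen with earlier results of these data known. Python 3.11.15, SciPy 1.17.1 and samtools 1.23.1 were used.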

Additional observations from a re-analysis of the deposited data

How the results depend on the processing

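Of 87 values recomputed under an alternative, 68 stayed within 1.5 times the count or within the interval of the median and 19 moved. Of 25 medians among them 3 changed sign, all of the fibrillar median, whose interval over peaks included 0. No paired analysis was possible because there was 1 library per group. Where a −log10 q of at least 5 was required in both lists, collagen genes with a promoter peak numbered 11 in No gRNA alone and 1 in All gRNA alone. These genes could have a weaker peak in the other list. Peaks of that strength that overlapped no peak of the other list numbered 12 (promoter, No gRNA), 3 (promoter, All gRNA) and 13 (intronic, All gRNA). At a −log10 q of at least 10 they numbered 4, 0 and 2, with 4 intronic in No gRNA, and 12 genes had a promoter peak in both, of which 3 were basement membrane, 5 fibrillar and 4 other collagens. At a promoter of 1000 bp 2 genes had a peak in No gRNA alone and 1 in All gRNA alone, and at 10000 bp 3 in No gRNA alone. Without peaks at starts of other genes 1 basement membrane gene kept a promoter peak in both, since each gene of a head-to-head pair counts as the other gene of its partner. With the threshold of 10 applied to both lists 1 peak was called higher, at 1.5-fold 5 were called lower, and scaled by the median ratio of all shared peaks 1 was called lower. That scaling shifts log2 ratios by 0.11. Applied to the medians, an alternative chosen after seeing the data, it gave 0.08 for fibrillar, −0.15 for basement membrane and 0.14 for other collagens. Counting error left wide intervals at low pileups, as at the COL14A1 peak with 9 and 19 read ends, where the ratio lay between 1.22 and 7.13.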
